A study of Arabidopsis thaliana with 4 samples.

Results

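The comparison described here sets leaf explants of the lbd16-2 mutant of Arabidopsis thaliana against wild-type Col-0 explants after 4 days on callus inducing medium. The genes were taken from the authors' lists of genes increased during callus induction: those increased in both genotypes (called shared here) and those in the wild-type list alone (called wild-type-only). A gene was kept when it had a level in all 4 libraries and when its mean over the 2 day 4 libraries was at least 100 normalised reads, that is, reads divided by the size factor of the library. This kept 1301 of the 2175 genes with 4 values, among 2179 listed genes. Of these, 1084 were shared, out of 1657, and 217 were wild-type-only, out of 518 with values. Just under the limit stood ADAP, with a wild-type level of 135 normalised reads and an lbd16-2 level of 64.8, and just above it HVA22J at 156 and 45.2. Where a gene is given 2 levels, here and below, the wild-type library comes first and the lbd16-2 library second, and a level with no day is that at day 4.

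RNA was sequenced from 4 libraries, 1 for each combination of genotype, Col-0 wild type or lbd16-2, and time, 0 or 4 days. Plants had grown for 12 days at 22 °C with 16 h of light and 8 h of dark, and their first pair of leaves was cut and kept on the medium in continuous dark. The day 0 libraries came from whole leaf explants and the day 4 libraries from whole explants together with the callus on them. With 1 library per genotype and day, none of the differences could be checked against replicates, and none was tested. Each interval in parentheses is an exact binomial 95% interval of the ratio of lbd16-2 to wild type. Such an interval holds counting error alone and is about a pair of libraries, not about the genotypes. Levels come from whole tissue, so fewer cells of a type and less RNA per cell cannot be told apart.

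Callus on a medium with auxin and cytokinin forms along a path that resembles the start of a lateral root, also in leaves. LBD16 is a LOB-domain transcription factor induced by auxin that acts early in this path. The PLETHORA and BBM factors, the RGF peptides and the auxin carriers that build a root meristem act downstream of, or beside, such early factors in roots.

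LBD16 itself had 20.9 and 34.3 normalised reads at day 0 and 981 and 518 at day 4, a day 4 ratio of 0.528 (0.484 to 0.575). The labels do not describe the lbd16-2 lesion, and a total per gene is blind to a broken transcript, so the LBD16 reads do not check the label. Every direction below rests on that label. The size factors at day 4 were 1.41 and 1.68, with 2837383 and 3324192 reads in the genes with 4 values. At day 4 a count of 3 reads equals 2.12 and 1.78 normalised reads. None of the leaf photosynthesis markers looked up had 4 values, since the lists hold only genes that increased, so the labelled leaf tissue could not be checked against them.

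Most of the 1301 genes, 923, were within 2-fold between the 2 day 4 libraries. In lbd16-2, 235 genes were at least 2-fold lower, which is 18.1% of all 1301, and 143 were at least 2-fold higher, 11.0%. At 4-fold, 59 genes (4.53%) were lower and 44 (3.38%) were higher. The median log2 ratio was -0.054 (-0.11 to -0.01 as an interval over genes, which are not replicates), with quartiles of -0.72 and 0.45. The counting interval lay wholly past 2-fold for 192 of the lower and 117 of the higher genes. It held a ratio of 1 for 193 of the 1301 genes, and lay wholly below 1 for 583 and wholly above 1 for 525.

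The balance between the directions depends on which list a gene came from. A wild-type-only gene had by the authors' rule an increase of over 8-fold in wild type and less in lbd16-2, so these genes lean to lower values in lbd16-2 by construction, while the 594 genes found only in the list of lbd16-2 were left out. Among the 217 wild-type-only genes, 60 (27.6%) were lower and 3 (1.38%) higher. Among the 1084 shared genes, 175 (16.1%) were lower and 140 (12.9%) higher, with a median log2 ratio of 0.038. Over all 2175 genes with 4 values, 523 (24.0%) were at least 2-fold lower and 245 (11.3%) higher, and at 4-fold 176 (8.09%) and 74 (3.40%). Under the limit of 100, 288 of 874 genes (33.0%) were lower and 102 (11.7%) higher. Within the 1301, the share of lower genes was 23.4% at means of 100 to 300 normalised reads and 11.3% at 3000 and above, where the share of higher genes was 12.0%.

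**Figure D1:**
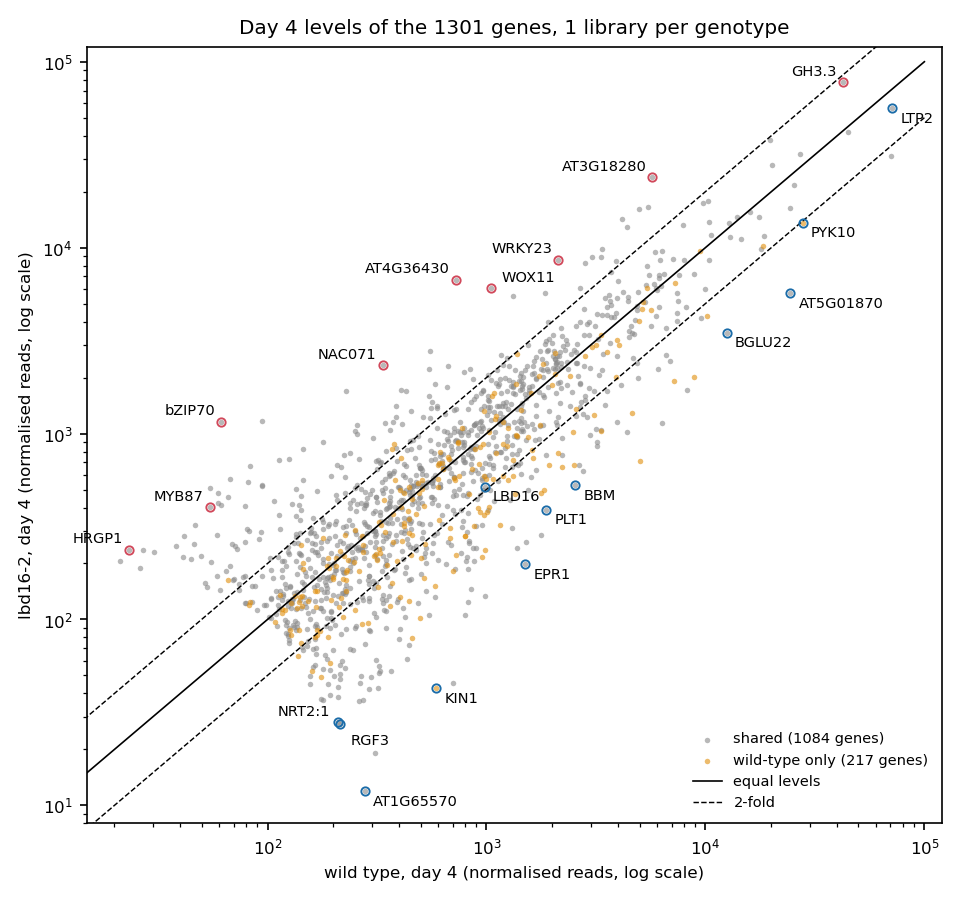
Levels at day 4 of the 1301 genes in the wild-type library (horizontal axis) and the lbd16-2 library (vertical axis), in normalised reads on log scales, with 1 point per gene. The solid line marks equal levels and the dashed lines 2-fold differences. Wild-type-only genes (orange) lie mostly on or below the line of equal levels, and among the ringed genes, which are named in the plot, AT1G65570 and BBM lie below the dashed lines and NAC071 above them.

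**Figure D2:**
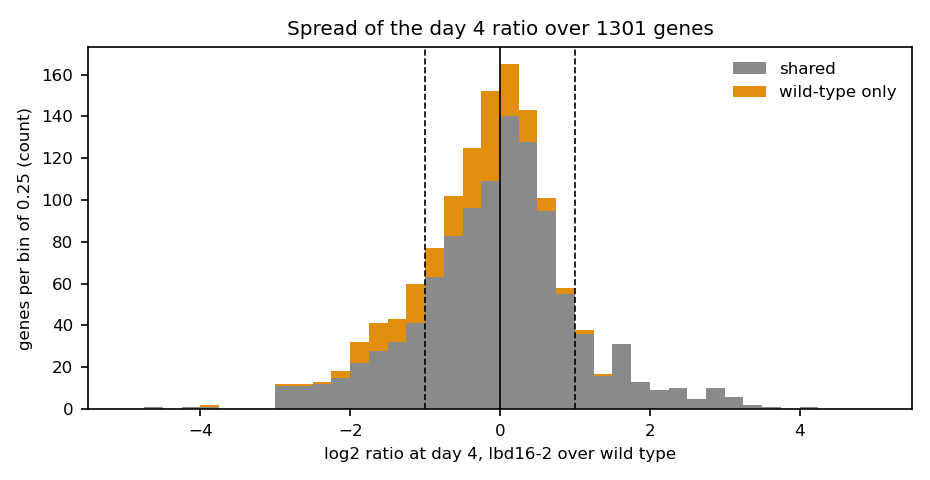
Number of genes per bin of 0.25 in the log2 ratio of lbd16-2 to wild type at day 4, with shared genes in grey and wild-type-only genes in orange stacked on them. Dashed lines mark 2-fold differences, and the lower side past them holds 235 genes against 143 on the higher side.

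The gene with the lowest ratio was AT1G65570, which encodes a pectin lyase-like protein. It had no reads at day 0 in either genotype, and 279 against 11.9 normalised reads at day 4, a ratio of 0.0426 (0.0258 to 0.0668). The nitrate transporter gene NRT2:1, which encodes a high-affinity uptake system of roots, had 4.88 and 1.86 at day 0 and 211 and 27.9 at day 4. NAC015 (BRN1), which encodes a NAC transcription factor of the root cap, had 0 and 0.928 at day 0 and 279 and 73.7 at day 4. All 3 genes were thus near 0 in both genotypes at day 0 and at least 3-fold lower in lbd16-2 at day 4, with ratios of 0.133 for NRT2:1 and 0.264 for NAC015. All 3 had under 100 normalised reads in lbd16-2 and passed the level limit only through the wild-type library. They are also the only 3 of the 235 lower genes whose promoter window, 250 bases before to 50 after the annotated start, holds GCGGCG on either strand, a core bound by LOB-domain proteins in other work. The 250 bases before the start of AT1G65570 and NRT2:1 are shown because they carry that match, beside those of BBM, a root stem cell regulator that has none, from the RefSeq annotation of build TAIR10.1 and read 5′ to 3′ on the strand of the gene. Capitals mark matches on either strand to GCGGCG, to the auxin response element TGTCNC, to the W-box forms TTGACC or else TTGACT, or to the G-box, which reads CACGTG. Overlapping matches were counted for each motif separately.
AT1G65570, chr1:24375896-24376145, minus strand: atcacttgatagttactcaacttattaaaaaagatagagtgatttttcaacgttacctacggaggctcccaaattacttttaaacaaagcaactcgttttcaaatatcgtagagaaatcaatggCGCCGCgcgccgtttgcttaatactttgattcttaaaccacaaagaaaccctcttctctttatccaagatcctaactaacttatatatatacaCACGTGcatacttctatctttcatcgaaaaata
NRT2:1, chr1:2523773-2524022, plus strand: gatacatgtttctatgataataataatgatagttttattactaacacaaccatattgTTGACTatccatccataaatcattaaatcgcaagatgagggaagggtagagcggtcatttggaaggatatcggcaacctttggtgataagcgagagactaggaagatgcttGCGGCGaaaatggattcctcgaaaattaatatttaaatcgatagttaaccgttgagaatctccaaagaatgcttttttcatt
BBM, chr5:5745749-5745998, minus strand: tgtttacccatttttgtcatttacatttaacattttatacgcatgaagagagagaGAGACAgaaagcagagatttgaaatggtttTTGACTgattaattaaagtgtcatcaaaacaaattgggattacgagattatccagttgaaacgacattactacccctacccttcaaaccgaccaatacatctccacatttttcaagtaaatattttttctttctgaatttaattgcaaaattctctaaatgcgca

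The motif GCGGCG was thus rare in every set of promoters, which were read for the 1290 protein-coding genes among the 1301. It occurred in 1.28% of the 235 lower genes, in 1.42% of 914 genes within 2-fold, and in 0.709% of 141 higher genes, where AT2G10608 alone carried it. Over all 27443 protein-coding genes it occurred in 2.24%. TGTCNC occurred in 32.8% of lower, 28.0% of within and 31.9% of higher genes, against 29.3% of all protein-coding genes. CACGTG was in 11.5%, 8.42% and 5.67% of the same sets and in 7.68% of all. TTGACC was in 14.5%, 15.2% and 18.4%, against 14.2% of all, and TTGACT in 20.9%, 24.9% and 22.0%, against 21.8% of all. A match is a run of letters and not a bound site, and none of these shares was tested.

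The other genes with the lowest ratios encode proteins of several kinds. AT5G59100, a subtilisin-like protease gene, had 0 and 0.928 normalised reads at day 0 and 311 and 19.0 at day 4, a ratio of 0.0612 (0.0414 to 0.0877). KIN1, a gene known from the response to cold and abscisic acid, had 43.3 and 69.6 at day 0 and 590 and 42.8 at day 4. It was a wild-type-only gene, and its level in lbd16-2 at day 4 was below that at day 0. EPR1, an extensin-type wall protein gene, had 0.698 and 0.928 at day 0 and 1498 and 198 at day 4. AT3G15240, listed as WNK kinase-like, had 802 and 105 at day 4, and the B3 factor gene AT1G26680 had 318 and 42.8. In each of these 5 genes the day 4 level in lbd16-2 was under 1 in 7 of that in wild type. AT5G59100, KIN1 and AT1G26680 had under 100 normalised reads in lbd16-2 and passed the level limit only through the wild-type library.

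The genes with the highest ratios were likewise of mixed function. bZIP70, a basic leucine-zipper factor gene, had 1.40 and 0 normalised reads at day 0, and 61.6 and 1159 at day 4, the largest ratio of the 1301 at 18.8 (15.2 to 23.6). AT4G27590, a gene of the heavy metal transport family, had 3.49 and 11.1 at day 0 and 94.1 and 1174 at day 4, a ratio of 12.5. NIC3, a nicotinamidase gene, had 54.5 and 508 at day 4, and HA9, a plasma membrane proton pump gene, 67.2 and 567. AT3G25640, an uncharacterised MIZU-KUSSEI-like gene, had 229 and 1697, a ratio of 7.40 (6.60 to 8.33). In all 5 genes the day 4 level in lbd16-2 was over 7-fold that in wild type. bZIP70, AT4G27590, NIC3 and HA9 had under 100 normalised reads in wild type and passed the level limit only through the lbd16-2 library.

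Among the regulators of root stem cells and of the root primordium, some stood lower in lbd16-2 and others higher. Of 22 such transcription factor genes, 6 were at least 2-fold lower, 5 at least 2-fold higher and 11 within 2-fold. Over all 1301 genes 18.1% were lower and 11.0% higher, and each list count below is to be read beside those shares. The median log2 ratio was -0.20, and it became 0.07 when the level limit was 20 or when only shared genes were used, so no direction is given for the list. Lower were BBM, PLT1, PLT2, FEZ, BS1 (also known as TMO7) and JKD. Higher were WOX11, ASL15 (LBD17), AT5G61890 (ERF114), AT5G07310 (ERF115) and Rap2.6L (ERF113).

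BBM and PLT1, AP2-type factors that specify the root stem cell niche, were near 0 at day 0, at 1.40 and 2.78 normalised reads for BBM and 0.698 and 0.928 for PLT1 in wild type and lbd16-2. At day 4 BBM stood at 2542 and 527, a ratio of 0.207 (0.193 to 0.223), and PLT1 at 1870 and 389, a ratio of 0.208 (0.191 to 0.227). PLT2, a close relative, stood at 1279 and 439. These 3 genes were thus all below the wild type at day 4. Each was above its day 0 level in lbd16-2, which the rule of the shared list sets in advance. AIL6 (PLT3), another member of the family, was at 9992 and 5988, a ratio of 0.599, and AIL7 (PLT7) went the other way with 596 and 1073, a ratio of 1.80.

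FEZ, a NAC factor of root cap and epidermis stem cells, had no reads at day 0 and 485 against 123 at day 4. SMB, the NAC factor of the root cap that acts with FEZ, was at 716 and 369, a ratio of 0.516. BS1, a small helix-loop-helix protein gene active in the embryonic root, also had no reads at day 0, and 651 and 199 at day 4. JKD, a zinc finger factor gene of the ground tissue and quiescent centre, had 39.8 and 30.6 at day 0 and 502 and 215 at day 4. FEZ, BS1 and JKD were thus at least 2-fold lower in lbd16-2. JKD is a wild-type-only gene and so leans to lower values by construction, while FEZ and BS1 are shared. WOX5, the homeobox gene of the quiescent centre, lay below the wild type within 2-fold, as SMB did, at 1071 and 651, a ratio of 0.608 (0.562 to 0.658). The LOB-domain genes LBD18, at 1340 and 972, and LBD29, at 495 and 651, were within 2-fold too, as was PUCHI at 1138 and 1196.

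Of the higher genes of this group, WOX11, AT5G07310, AT5G61890 and Rap2.6L are known from wounding or from roots that form on cut organs. WOX11, which starts new roots on leaf explants, had 1.40 and 2.78 normalised reads at day 0 and 1049 and 6037 at day 4, a ratio of 5.76 (5.45 to 6.08). ASL15, the gene next to LBD16 on its chromosome, had no reads at day 0 and 79.2 against 410 at day 4, a ratio of 5.17 (4.23 to 6.37). AT5G07310, a wound-induced factor of stem cell renewal, stood at 669 and 2314, and AT5G61890 at 408 and 1725. Rap2.6L stood at 1852 and 5716. NAC071, which is outside this list and acts with Rap2.6L when cut stems rejoin, stood at 336 and 2341, a ratio of 6.97 (6.33 to 7.68). WOX11 is thus at its higher level in the library where BBM, PLT1 and PLT2 are at their lower level.

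Signalling peptide genes mostly lay lower in lbd16-2, among them the 4 RGF genes of the root meristem. Of 7 signalling peptide genes, out of 20 with 4 values, 4 were at least 2-fold lower and 1 higher. The shares over all 1301 genes were 18.1% and 11.0%. The median log2 ratio of the 7 was -1.03 beside -0.054 over all 1301. RGF3, whose peptide supports root meristem activity, had no reads at day 0, and 214 and 27.3 normalised reads at day 4, a ratio of 0.128 (0.0917 to 0.175). RGF2 also had none at day 0 and stood at 524 and 227 at day 4, and RGF8 at 1426 and 697. RGF5, at 449 and 246, was the fourth RGF gene and stayed within 2-fold. All 4 RGF genes were thus below the wild type, by factors from 0.128 to 0.548. PSK1, a phytosulfokine precursor gene, stood at 349 and 127. On the other side were RALF1, a rapid alkalinization factor gene, at 179 and 332, and IDL4, a relative of the abscission peptide gene IDA, at 103 and 214.

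Receptor-like kinase genes showed no lean as a group, with 2 of 18 lower, 2 higher and a median log2 ratio of -0.07. AT5G48940, a leucine-rich repeat receptor kinase gene, had 12.6 and 30.6 normalised reads at day 0 and 3210 and 859 at day 4, a ratio of 0.268 (0.252 to 0.284). PR5K, a receptor kinase gene with a thaumatin-like outer part, stood at 292 and 130. Higher were AT5G53320, at 560 and 1372, and AT1G51850, at 162 and 353, both leucine-rich repeat kinase genes. IMK2 had the highest level of the group in reads and stood at 5533 and 7137, a ratio of 1.29.

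Genes of auxin synthesis and transport contained 3 of 7 members that were at least 2-fold lower and none that was higher. Over all 1301 genes the shares were 18.1% and 11.0%. YUC3, which encodes an enzyme of the main auxin synthesis route, had 1.40 and 1.86 normalised reads at day 0 and 260 and 36.3 at day 4, a ratio of 0.139 (0.104 to 0.183). EIR1 (PIN2), the auxin carrier of the root epidermis and cap, had 2.79 and 3.71 at day 0 and 1311 and 309 at day 4, a ratio of 0.235 (0.213 to 0.260). The kinase gene WAG1, which acts on PIN carriers, stood at 165 and 80.3, and its ratio of 0.487 passed to 0.516 with a pseudocount of 10. WAG1 is a wild-type-only gene. YUC3 and EIR1 were thus near 0 at day 0 in both genotypes and over 4-fold lower in lbd16-2 at day 4.

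Early auxin response genes mostly lay within 2-fold between the 2 libraries. Of 25 Aux/IAA, GH3 and SAUR genes, 2 were lower, 2 higher and 21 within 2-fold, with a median log2 ratio of 0.15. GH3.3, an enzyme gene that couples auxin to amino acids, had 59.3 and 69.6 normalised reads at day 0 and 42389 and 77819 at day 4, the largest gain in normalised reads of the 1301. WES1 (GH3.5) of the same family went the other way, at 24352 and 16373. IAA20, a repressor-type auxin response gene, stood at 548 and 1596, a ratio of 2.91 (2.69 to 3.16). The 2 lower members, AT4G31320 and AT1G75580, are SAUR-type genes, with ratios of 0.239 and 0.451.

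Other hormone genes gave small lists, beside shares of 18.1% lower and 11.0% higher over all 1301 genes. Of 5 gibberellin genes, 3 were lower and none higher: GA3OX2 at 193 and 58.3 normalised reads and GA20OX2 at 160 and 52.9, both for enzymes that make active gibberellin, and GA2OX4 at 306 and 148, for an enzyme that removes it. Enzymes of both directions were thus lower, and GA3OX2 and GA20OX2 are wild-type-only genes. Among 5 cytokinin genes, LOG3, which encodes an activating enzyme, stood at 126 and 732, a ratio of 5.82 (4.97 to 6.84), while ARR3, a response regulator gene, stood at 292 and 87.4, a ratio of 0.299 (0.246 to 0.362). The degradation genes CKX1, CKX3 and CKX5 were within 2-fold. Among 4 ethylene synthesis genes, 1 was lower and 1 higher. The synthase gene ACS2 was higher, with a ratio of 2.79, and ACS8 was just within 2-fold at 1.998. A further synthase gene, ACS4, which is wild-type-only, went the other way at 443 and 291, a ratio of 0.658. The oxidase gene ACO1 stood at 1688 and 634, a ratio of 0.375.

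**Figure D3:**
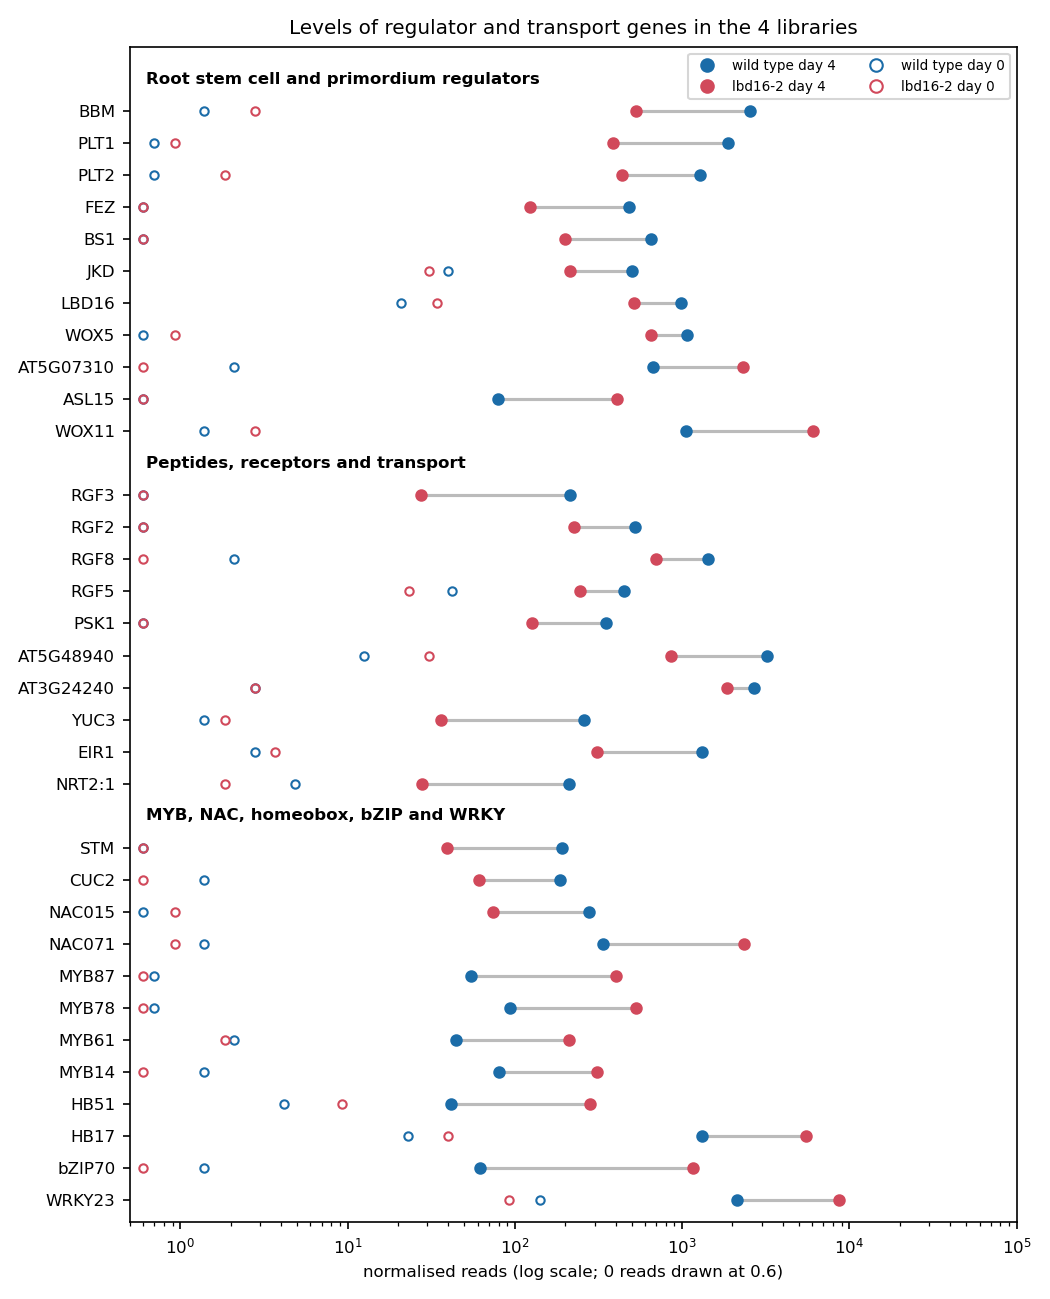
Normalised reads (log scale) of regulator, peptide and transport genes in the 4 libraries, with filled circles for day 4, open circles for day 0, blue for wild type and red for lbd16-2. A grey line joins the day 4 values of a gene. Day 0 values lie left of day 4 values throughout, which the rule of the lists sets for wild type and, in shared genes, for lbd16-2. The red filled circle lies left of the blue one from BBM to WOX5 and right of it from AT5G07310 to WOX11.

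Genes named as MYB domain factors lay mostly on the lbd16-2 side. Of 14 such genes, out of 28 with 4 values, 7 were at least 2-fold higher and none lower, beside 11.0% and 18.1% of all 1301 genes. Of the 14, 12 lay above the wild type, with a median log2 ratio of 0.83. MYB87 had 0.698 and 0 normalised reads at day 0 and 54.5 and 402 at day 4, a ratio of 7.38 (5.82 to 9.46). MYB78 stood at 94.1 and 530 at day 4, MYB61 at 44.6 and 212, and MYB14 at 80.7 and 308. The other 3, MYB108, MYB2 and MYB63, had ratios of 2.83, 2.28 and 2.07, and MYB63 is known as an activator of lignin synthesis genes. Apart from MYB63, at 15.4 and 36.2, these genes had under 4 normalised reads at day 0 in both genotypes. MYB87, MYB78, MYB61, MYB14 and MYB108 had under 100 normalised reads in wild type at day 4. They passed the level limit only through the lbd16-2 library. WRKY genes also lay mostly above the wild type, 8 of 10, but only WRKY23 passed 2-fold, with 142 and 91.8 at day 0 and 2126 and 8617 at day 4.

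Homeobox genes split, with 2 lower and 4 higher of 11 and a median log2 ratio of -0.04, which became 0.24 with shared genes only. STM, a gene of the shoot meristem, had no reads at day 0 and 192 against 39.2 normalised reads at day 4, and HB53 stood at 573 and 285. On the other side were WOX11, HB51 at 41.8 and 282, HB52 at 53.1 and 150, and HB17 at 1319 and 5475, a ratio of 4.15 (3.95 to 4.37). HB51 and HB52 passed the level limit only through the lbd16-2 library. The family thus held large differences in both directions. CPC, a single-repeat MYB gene that acts in root hair spacing and was in neither list, stood at 352 and 170. ATS, a wild-type-only gene known from ovule integuments, stood at 458 and 79.7.

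Of 18 NAC genes 4 were lower, FEZ, NAC015, CUC2 and NAC038, and 2 were higher, NAC071 and NAC020. These counts are close to the 18.1% lower and 11.0% higher over all 1301 genes. CUC2, a boundary gene of shoot meristems, had 1.40 and 0 normalised reads at day 0 and 187 and 61.2 at day 4, a ratio of 0.327 (0.258 to 0.412). Among 18 AP2/ERF genes, 6 were lower and 3 higher. Beside the root genes above, the lower ones included ERF1, an ethylene and jasmonate response gene, at 347 and 111, and AT1G36060 (WIND3), of a family that promotes callus at wounds, at 6584 and 2656. AT1G36060 was thus 0.403 of its wild-type level, while Rap2.6L, AT5G07310 and AT5G61890 were over 3-fold higher.

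AT-hook proteins, which bind AT-rich DNA, had 4 of 13 members lower and none higher, beside 18.1% and 11.0% of all 1301 genes. Their median log2 ratio was -0.36. AHL22 stood at 403 and 88.6 normalised reads, AT4G12050 at 161 and 55.3, ESC (AHL27) at 1599 and 586, and AHL19 at 3492 and 1433. SOB3 and AHL20 lay on the other side within 2-fold, with ratios of 1.68 and 1.75. Among 11 LOB-domain genes, LBD15, a wild-type-only gene, and ASL5 were lower, with ratios of 0.328 and 0.388, and ASL15 was higher. Of 11 IQD and microtubule-associated genes, whose proteins organise the cytoskeleton, 4 were lower and 1 higher, beside those same shares. IQD16 had 0 and 3.71 at day 0 and 264 and 45.8 at day 4, and IQD18, iqd15 and MAP18 had ratios of 0.258, 0.425 and 0.427. The IQD list had a median log2 ratio of -0.48, and 4 of its members are wild-type-only genes.

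Genes of mitosis and cytokinesis did not follow the lower regulators. Of 34 such genes, 33 were within 2-fold, 26 lay above the wild type and the median log2 ratio was 0.24. NEK4, a wild-type-only gene for a kinase of microtubule organisation, was the exception at 453 and 221 normalised reads. The mitotic cyclin gene CYCB1;1 stood at 1259 and 1115, a ratio of 0.886 (0.829 to 0.945), and CDKB2;2, a mitotic kinase gene, at 1194 and 2338, a ratio of 1.96 (1.85 to 2.07). HIK, a kinesin gene of the dividing plane, stood at 3569 and 4346.

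**Figure D4:**
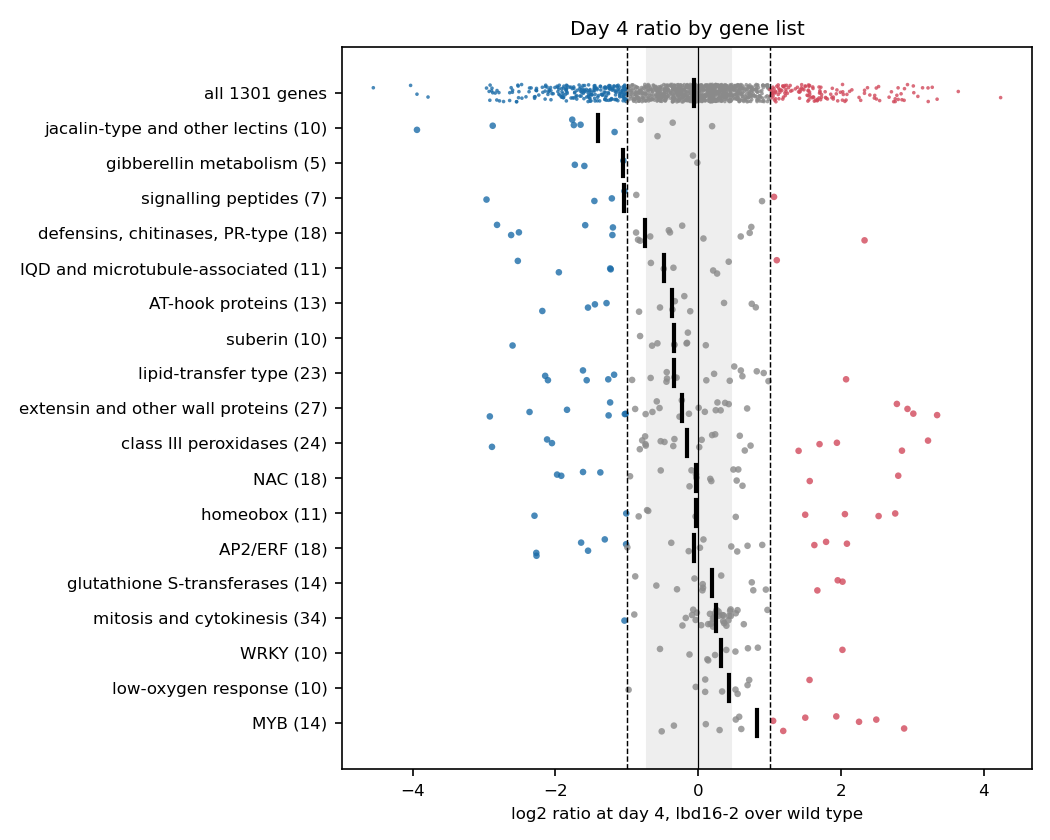
Log2 ratio of lbd16-2 to wild type at day 4 for each member of 18 gene lists and for all 1301 genes, with 1 point per gene, blue at least 2-fold lower, red at least 2-fold higher, and the number of genes in parentheses. Black bars mark medians and the grey band the quartiles over all 1301 genes, -0.72 and 0.45. The median of the lectins is at -1.41 and that of the MYB genes at 0.83.

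ER-body beta-glucosidases and the lectins that gather with them, a system that in roots releases defence compounds when cells break, lay below the wild type. This list was put together after the values were seen. Of its 10 members, 9 were at least 2-fold lower and all 10 lay below the wild type, with a median log2 ratio of -1.75. Summed over the 10 genes, the levels were 67935 and 25043 normalised reads, a ratio of 0.369. PYK10, the main beta-glucosidase of root ER bodies, had 1484 and 6705 at day 0 and 27820 and 13647 at day 4, a ratio of 0.491 (0.483 to 0.499). At day 0 the order of the 2 genotypes was thus the reverse of that at day 4. BGLU22 had 6.28 and 9.28 at day 0 and 12482 and 3494 at day 4, and BGLU21 4.88 and 4.64 at day 0 and 8264 and 1720 at day 4. These 2 genes are neighbours with near-identical products, so reads may be split between them.

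MLP-300B, a myrosinase-binding protein-like gene, had 3.49 and 5.57 normalised reads at day 0 and 6336 and 1140 at day 4, a ratio of 0.180 (0.171 to 0.189). NSP4, whose product turns glucosinolate breakdown towards nitriles, stood at 433 and 61.2 at day 4. The jacalin-related lectin genes JAL33, JAL22 and JAL31 had ratios of 0.294, 0.299 and 0.319, and JAL23 stood at 252 and 112 at day 4 after 25.8 and 327 at day 0. GLL22, a GDSL lipase-like gene, was the 1 member within 2-fold at 4657 and 2559. PYK10, JAL22 and JAL23 are wild-type-only genes, while the other 7 members are shared. A list of 10 jacalin-type and other lectin genes shares JAL22, JAL23, JAL31 and JAL33 with the ER-body list and is no separate support for it. In that list 6 genes were lower, those 4 among them, and none higher, beside 18.1% and 11.0% of all 1301 genes, with summed levels of 14168 and 6205 normalised reads. The other 2 lower genes, AT5G35940 at 703 and 45.8 and AT2G25980 at 988 and 134, are mannose-binding lectin genes outside the ER-body list.

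Among 18 defensin, chitinase and PR-type genes, 6 were lower and 1 higher, beside 18.1% and 11.0% of all 1301 genes, with a median log2 ratio of -0.74. Their summed levels were closer, at 85392 and 67939 normalised reads, a ratio of 0.796. AT2G43610, a chitinase gene in the wild-type-only list, had 50.9 and 89.05 normalised reads at day 0 and 5021 and 712 at day 4. PDF2.5 stood at 326 and 52.9 and the chitinase gene AT1G56680 at 1380 and 242. PR4, a chitin-binding protein gene, had 353 and 65.9 at day 0 and 9531 and 4160 at day 4, and was thus lower in lbd16-2 at both days. The exception was the defensin gene PDF2.1, at 555 and 2786, a ratio of 5.02 (4.66 to 5.42), whose family member PDF2.5 was among the lowest.

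Camalexin synthesis genes lay on the opposite side. PAD3, which encodes the last enzyme of the route, had 60.0 and 3.71 normalised reads at day 0 and 788 and 2146 at day 4, a ratio of 2.72 (2.55 to 2.91), so the order of the genotypes at day 0 was turned round at day 4. CYP71A12 stood at 146 and 822, a ratio of 5.64 (4.87 to 6.56), and CYP71A13 at 299 and 497. CYP71A12 and CYP71A13 are near-identical, and their single values are uncertain for that reason. Of 14 glutathione S-transferase genes, 3 were higher and none lower: GSTL1 at 107 and 433, GSTU12 at 146 and 564 and GSTU11 at 385 and 1223. GSTU11 and GSTU12 are neighbours on the chromosome. Over all 24 cytochrome P450 genes 4 were lower and 5 higher, and CYP705A8, with 26.9 and 237, had the highest ratio at 8.82 (6.32 to 12.7).

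Cell wall proteins went both ways within single families. Of 27 extensin, proline-rich and glycine-rich genes, 7 were lower, EPR1 at the head, and 4 were higher. Over all 1301 genes the shares were 18.1% and 11.0%. The 4 higher genes were all proline-rich extensin-like: HRGP1 at 23.4 and 237 normalised reads, AT3G28550 at 82.8 and 668, AT1G23720 at 30.4 and 232, and AT3G54580 at 46.7 and 321. All 4 had 0 or 1 read at day 0 and ratios from 6.87 to 10.2. In wild type all 4 were under 100 normalised reads, so they passed the level limit only through the lbd16-2 library. They are repetitive and close in sequence, and HRGP1 and AT3G54580 are neighbours, so their reads may be shared and the 4 values are not independent. EXT4, an extensin gene, was within 2-fold at 5900 and 9480. GRP5, a glycine-rich protein gene in the wild-type-only list, stood at 10219 and 4279.

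Among 24 class III peroxidase genes, whose enzymes cross-link the wall, 3 were lower and 5 higher, beside 18.1% and 11.0% of all 1301 genes. AT4G11290 stood at 273 and 36.9 normalised reads, AT2G38390 at 2745 and 633, and AT2G43480 at 226 and 54.7. In the other direction AT4G36430 had 3.49 and 1.86 at day 0 and 723 and 6726 at day 4, a ratio of 9.30 (8.72 to 9.93), and AT2G37130 stood at 4998 and 16215, a ratio of 3.24 (3.16 to 3.33). AT3G03670, at 26.2 and 189, lies next to WOX11, and both were over 5-fold higher. The peroxidase family as a whole had a median log2 ratio of -0.16, so single members and not the family set the larger differences.

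Among wall enzymes, EXPA4, an expansin gene, had 1111 and 1531 normalised reads at day 0 and 19745 and 37982 at day 4, a ratio of 1.92 (1.90 to 1.95). The endoglucanase gene CEL3 stood at 4179 and 14319, a ratio of 3.43 (3.33 to 3.53), and the pectin lyase-like gene AT3G27400 at 4378 and 12967, a ratio of 2.96 (2.88 to 3.05). XTH11, a xyloglucan-modifying enzyme gene, went the other way at 2639 and 675, while its relative XTH20 stood at 869 and 1956. Of 22 pectin-modifying genes 2 were lower and 3 higher, AT1G65570 the lowest and AT2G45220, a gene of the invertase and pectin methylesterase inhibitor superfamily at 112 and 717, the highest.

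Lipid-transfer type proteins, small secreted carriers of the wall and cuticle, had 6 of 23 members lower and 1 higher. Over all 1301 genes the shares were 18.1% and 11.0%. Summed over the 23 genes the levels were 206016 and 147495 normalised reads. AT4G15160 had 34.9 and 37.1 at day 0 and 70317 and 31055 at day 4, the largest loss in normalised reads of the 1301, with a ratio of 0.442 (0.437 to 0.446). AT5G01870 stood at 24425 and 5674, a ratio of 0.232 (0.227 to 0.238), and LTP2 was within 2-fold at 71060 and 56355. AT3G18280 was the 1 higher member, with 468 and 708 at day 0 and 5726 and 24041 at day 4, a ratio of 4.20 (4.10 to 4.30). Of 10 suberin genes 9 lay below the wild type, but only FACT, which adds caffeate to the alcohols of suberin waxes, passed 2-fold, at 296 and 48.8.

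**Figure D5:**
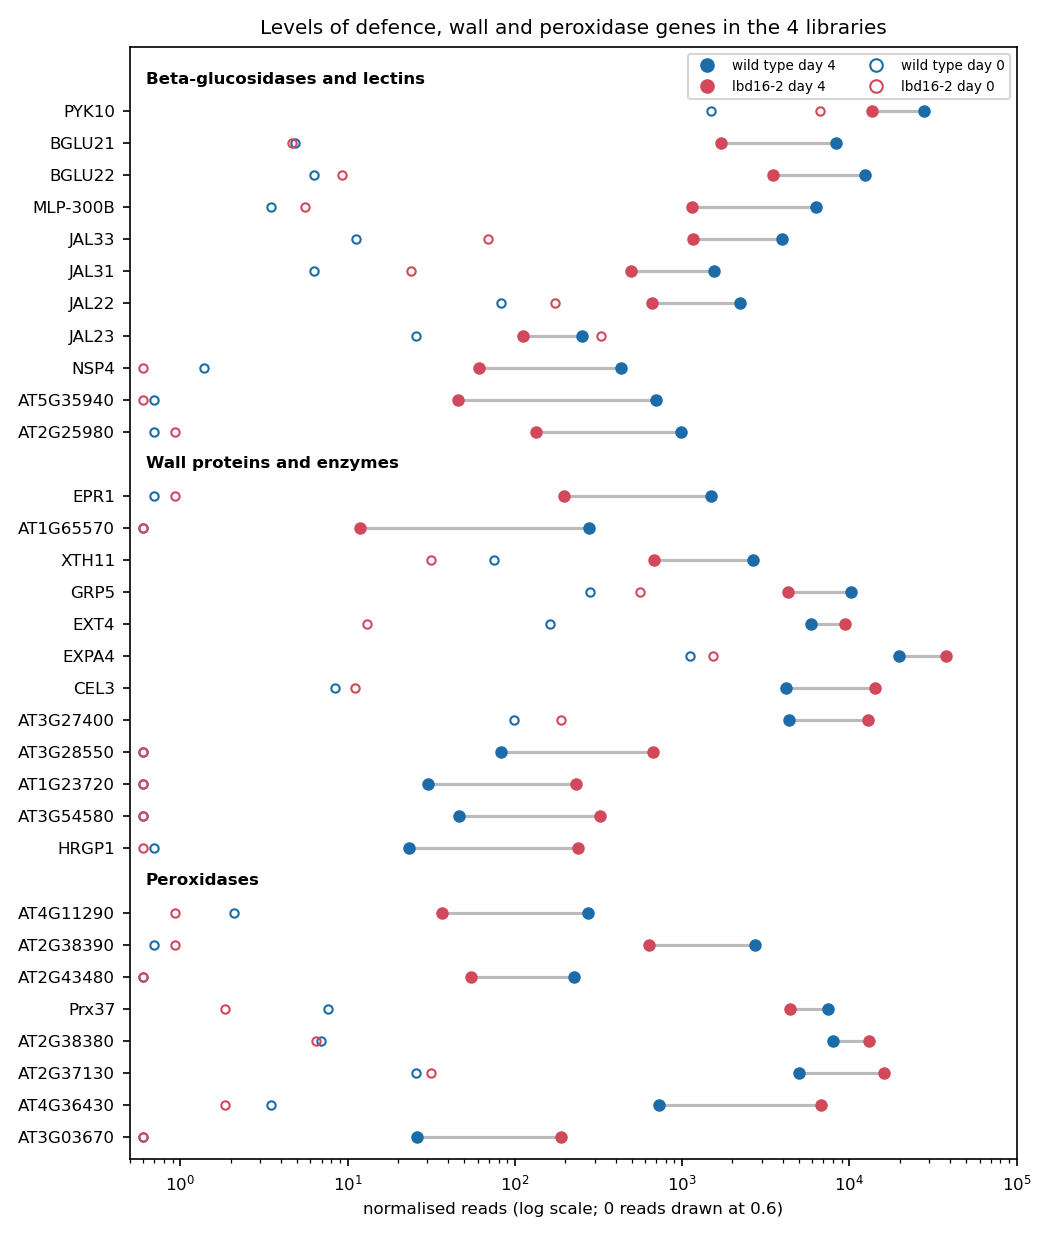
Normalised reads (log scale) of beta-glucosidase, lectin, wall protein and peroxidase genes in the 4 libraries, with filled circles for day 4, open circles for day 0, blue for wild type and red for lbd16-2. In the first group all 11 genes have the red filled circle left of the blue one. In the other groups both orders occur, as for EPR1 and HRGP1 or for AT4G11290 and AT4G36430.

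Transporters and metabolism gave few even patterns, beside shares of 18.1% lower and 11.0% higher over all 1301 genes. Of 22 ABC and MATE transporter genes 5 were lower and 1 higher, with AT2G04090 at 880 and 207 normalised reads, ABCG13 at 720 and 187, and AT1G58007 on the other side at 139 and 411. Of 8 root nutrient transporter genes, NRT2:1 was lower, and ZIP2, for a metal ion carrier, and SULTR3;4, of the sulfate transporter family, were higher with ratios of 2.75 and 2.32. Of 10 low-oxygen response genes 9 were within 2-fold and 8 lay above the wild type. ADH1, the alcohol dehydrogenase of fermentation, was the 1 past 2-fold, at 2825 and 8317, a ratio of 2.94 (2.84 to 3.05). Of 11 late embryogenesis abundant and seed protein genes 3 were lower and none higher, AT4G38410, a dehydrin gene, at 1774 and 284.

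Few markers of other cell types were found among the 1301 genes. The lists hold only genes that increased, and some marker symbols were not matched to a locus. The level limit removed others, as only 2 of 4 endodermis markers with 4 values passed it. Absence here therefore does not describe the tissue. Of the root cap markers matched, FEZ and SMB were present, both below the wild type. NAC015 (BRN1), a further root cap gene that the matched list did not hold, had a ratio of 0.264. Of the endodermis markers JKD, at a ratio of 0.427, and KCS2, at 0.673, were present. Of the vascular markers only PHB was present, at a ratio of 0.974. What part cell makeup has in the differences above was not tested.

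Day 0 levels, which the day 4 ratio does not use, were very low for many of the lower genes. Of the 235 lower genes, 100 (42.6%) had 3 reads or fewer in each day 0 library, against 48 of 143 higher genes (33.6%) and 17.7% of the 923 genes within 2-fold. No wild-type-only gene, whether lower, higher or within 2-fold, had so few reads in both day 0 libraries. Among the shared genes alone the shares were 57.1% of 175 lower, 34.3% of 140 higher and 21.2% of 769 within 2-fold. From day 0 to day 4 the lower genes increased by a median of 110-fold in wild type and 22.8-fold in lbd16-2, and the higher genes by 29.7-fold and 88.0-fold. Genes within 2-fold increased by 29.1-fold and 22.4-fold. These increases share the day 4 libraries with the ratio, and genes with 0 reads at day 0 enter them at the floor of 3 reads. Among 555 genes with a day 0 mean of at least 20 normalised reads, the median log2 ratio of lbd16-2 to wild type at day 0 was 0.63. Of the lower genes 68 reached that day 0 level, and their median depended on the list, at -0.41 for the 19 shared genes and 0.88 for the 49 wild-type-only genes. For the 35 shared higher genes it was 0.65. For the 322 shared genes within 2-fold that reached the same day 0 level it was 0.50. The rule of the lists asks an over 8-fold increase in wild type of every gene, but in lbd16-2 only of the shared ones. What part that rule has in the day 0 medians was not tested.

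Summed over the 1301 genes, the day 4 levels were 1971070 and 1946320 normalised reads, a ratio of 0.987. The 235 lower genes held 20.7% of the wild-type sum and 7.41% of the lbd16-2 sum, and the 143 higher genes 4.26% and 13.8%. The 10 genes with the most reads held 19.2% and 18.9%, and 7 of the 10 were the same in both libraries. The sums of the 2 libraries were thus close to each other.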

How the data were processed

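RNA sequencing covered 4 libraries, 1 per genotype and day. The tools named by the submitters' processing notes are Cufflinks, DESeq, FastQC, STAR and Trim Galore, and the build is TAIR10. Versions, settings, strand and the treatment of multi-mapping reads were not given in the sources used here. Near-identical or overlapping genes are uncertain for that reason. The levels the authors deposited are on a log2 scale, and the log2 fold change columns they deposited set the lists, with a limit of 3 (8-fold). Their deposited p-value and FDR columns and the deposited ratio of folds were not used.

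The deposited levels equal log2(normalised reads + 1), inferred from the values: with 1 size factor per library, 100% of values came out as whole reads within 0.001 reads. Total library depth is unknown, since only listed genes are in the tables. Ratios of normalised reads (Python 3.11.15, numpy 2.4.6, pandas 2.3.3, scipy 1.17.1) used no pseudocount. Exact binomial 95% intervals cover counting error only. Intervals and counts were tested on simulated reads. A gene with 0 reads at day 0 enters an increase at a floor of 3 reads in that library.

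The members and the 56 gene lists, 49 with at least 3 members, were chosen with earlier results of these data known, and the list of ER-body genes and the corrections of wrongly matched symbols came after the values were seen. Lists were matched by symbol, product or locus in RefSeq, where 1301 of 1301 genes matched. Promoters were read from the TAIR10.1 sequence with its own annotation, by locus identifier, and no coordinate of the authors was used. The values of 1 gene and 1 promoter sequence are not reported here. Named genes were LBD16, the 15 lowest and 15 highest ratios, the 10 largest differences in normalised reads in each direction, and per list up to 4 members with the largest log2 ratio and the 1 with the highest level. Groups of up to 5 counted genes could also be named. Outside that rule, RALF1, PLT2, GLL22, NAC020, BS1, SOB3, EXT4, MYB63, SMB, AT2G10608, NAC038, ADAP, HVA22J, JAL23, AT2G43480, LBD18, MYB2, PR4, MYB108, WOX5, JAL31, GRP5, AT3G54580, LBD29, AHL20, CYCB1;1, PUCHI, ATS, RGF5, HB52, AIL7, HB53, AT5G26280, SNRK2.5, ADS1, AT1G06090, AN3 and WVD2 were chosen after their values were seen. The alternatives were level limits of 20 and 300 normalised reads and none, pseudocounts of 1 and 10, centring, shared genes only, thinning to 1 depth, a 4-fold limit and an interval wholly past 2-fold.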

Additional observations from a re-analysis of the deposited data

Results flagged for a closer look

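In 3 of the 1301 genes (0.231%) the lbd16-2 library at day 4 stood below its own day 0 level, while the wild-type library increased by the rule of the lists. All 3 are wild-type-only genes, and the difference between the genotypes' changes was not tested. For KIN1 the wild-type levels were 43.3 normalised reads at day 0 and 590 at day 4, beside lbd16-2 levels of 69.6 and 42.8, a day 4 to day 0 ratio in lbd16-2 of 0.615 (0.439 to 0.862). AT5G26280, a TRAF-like gene, had wild-type levels of 170 and 1925 and lbd16-2 levels of 788 and 681, a ratio in lbd16-2 of 0.863 (0.789 to 0.945). JAL23, a lectin gene, had wild-type levels of 25.8 and 252 and lbd16-2 levels of 327 and 112, a ratio in lbd16-2 of 0.341 (0.284 to 0.409).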

How the results depend on the processing

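No paired analysis was possible because each group has 1 library and no test was run, and no library could be left out. The count of genes at least 2-fold lower, 235, became 392 at a level limit of 20 normalised reads, 132 at a limit of 300, 523 with no limit and 59 at 4-fold. The count of higher genes, 143, became 229, 89, 245 and 44 under the same settings. The median log2 ratio of -0.054 became -0.12 at a limit of 20, 0.023 at 300, -0.18 with no limit and 0.038 with shared genes only. The other settings, which were centring on the shared genes (245 lower and 137 higher), pseudocounts of 1 and 10, shared genes only for the counts, thinning and the interval wholly past 2-fold, kept both counts within 1.5 times. Of 153 named genes past 2-fold, 5 (WAG1, SAG13, IDL4, AT3G56770 and NEK4) lost it under some setting. The median changed sign under some setting in 19 of 49 lists, 1 of them with a median of at least 0.5 in size, the zinc finger genes. The cause of the shift with the level limit was not tested.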

Other observations

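Among the 1301 genes, 120 pairs of protein-coding genes lay next to each other in the RefSeq annotation. In 8 pairs both genes were at least 2-fold lower in lbd16-2, in 5 both were higher, in 1 the directions were opposite, in 33 exactly 1 gene passed 2-fold and in 73 neither did. The lower pairs included SNRK2.5, a protein kinase gene, and PDF2.5, with ratios of 0.489 and 0.163. Another was the desaturase gene ADS1, which is wild-type-only, with AT1G06090, at 0.265 and 0.401. The opposite pair was AN3, a growth coactivator gene at 955 and 216 normalised reads in wild type and lbd16-2, and WVD2, a microtubule-associated gene at 135 and 289.5. AN3 is a wild-type-only gene and WVD2 is shared. The products were the same in 27 of the 120 pairs, and reads that match both genes of such a pair cannot be assigned to 1 of them.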
